A study of Mus musculus with 30 samples.

Results

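Accessible chromatin was examined around 9 genes of the osteoblast program, Runx2, Sp7, Dlx5, Dlx6, Msx2, Alpl, Phex, Ibsp and Spp1. A window, which is a stretch of genome where reads of the assay had piled up, was taken as belonging to a gene when its nearest start of a protein-coding transcript (TSS; GRCm38, GENCODE vM21) lay within 50 kb and was a start of that gene. This gave 162 of 305931 windows in the table of the 24 h experiment and 156 of 369846 in the table of the 4 h experiment. Runx2 had 35 windows at 24 h and 36 at 4 h, Sp7 11 and 12, Dlx5 14 and 10, Dlx6 20 and 17, Msx2 14 and 13, Alpl 6 and 10, Phex 25 and 20, Ibsp 4 and 8, and Spp1 33 and 30. The windows were assigned by position alone, while the genes were chosen with earlier results of these data known. A nearest start does not show that a window acts on that gene. Distances are given to the nearest start, which for Runx2, Alpl, Phex and Spp1 was not the same start for every window.

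The libraries were made by Omni-ATAC from 50000 cells each, with 3 libraries in each of 7 groups. ATAC-seq marks open chromatin by letting a transposase insert sequencing adapters where DNA is exposed. Mesenchymal stem cells (MSCs) from the marrow of C57BL/6J mice were left untreated, given CK666 or given CytoD for 24 h. In a separate experiment MSCs and NIH3T3 cells, an established line of embryonic fibroblasts, were left untreated or given CK666 for 4 h. CK666 inhibits Arp2/3, the complex that branches actin filaments, and CytoD (cytochalasin D) inhibits actin polymerization. The labels give strain C57BL/6J and male sex for every sample, the NIH3T3 samples included. They do not say whether the libraries of a group came from separate cultures, so the p-values below measure only the spread between these libraries, which may be technical.

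Osteoblasts arise from mesenchymal precursors when Runx2, a transcription factor of the runt family, and then Sp7 (osterix), a zinc-finger factor that acts downstream of Runx2, switch on genes of bone matrix and mineral. The homeodomain factors Dlx5, Dlx6 and Msx2 act in the same lineage. Alpl encodes tissue-nonspecific alkaline phosphatase, which frees phosphate for mineral. Phex is an endopeptidase of bone cells that is needed for normal mineralization. Ibsp (bone sialoprotein) and Spp1 (osteopontin) are acidic proteins of the bone matrix.

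Total counts in windows ran from 14071301 to 22352180 per library at 24 h and from 14496058 to 34979833 at 4 h, and the NIH3T3 libraries with CK666 (14496058 to 23146416) were shallower than the MSC libraries of the same experiment. Counts were scaled by TMM, a factor per library that assumes most windows do not change, and are given as normalised counts. A shift common to the whole genome therefore leaves no trace. Library totals used alone as the scale moved the median log2 fold change over all windows by −0.19 for MSC against NIH3T3 controls, by 0.11 for CK666 in NIH3T3 cells and by less than 0.1 in the other comparisons of a pair of groups. Of 11 stromal markers, 6 had a window at a start in the 24 h table, each of them over 100 normalised counts in controls, with a median of 496. The sum over stromal markers was 3356 to 3680 in control, 3199 to 3347 in CK666 and 2809 to 3159 in CytoD libraries. Of 7 haematopoietic markers, 2 had such a window, at a summed 30.7 to 41.1 in control, 38.4 to 65.8 in CK666 and 73.2 to 96.7 in CytoD libraries, and none reached 100. At 4 h, 8 of the 11 stromal markers had a window at a start, all but Ly6a, Eng and Nt5e. They summed to 5046 to 5413 in MSC and 4156 to 4649 in NIH3T3 controls. Thy1 (0.674 against 70.1), Lepr (14.8 against 43.3) and Vcam1 (466 against 577.5) were lower in MSC controls, and the others higher. The part of these differences in the results below was not tested. In bulk libraries, fewer cells with an open site and less opening per cell cannot be told apart.

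A selection of called windows, from both agents, times and cell types, is printed first by their central 200 bases (GRCm38, plus strand, 5′ to 3′). Capitals mark exact matches, on either strand, to 4 short motifs: TGTGGT for runt factors, TGANTCA for AP-1, GGAATG for TEAD factors and TAATTG for homeodomain factors of the DLX and MSX kind. The window 17.6 kb upstream of Spp1, the only one of the Spp1 windows called as gained with CK666 at 24 h, and the Dlx6 window, called as lost with both agents, held no match. The Msx2 window held a runt match that overlaps a TEAD match, at bases 124 and 128, and AP-1 matches at bases 164 and 183.
Spp1, 17.6 kb upstream, chr5:104417117-104417316: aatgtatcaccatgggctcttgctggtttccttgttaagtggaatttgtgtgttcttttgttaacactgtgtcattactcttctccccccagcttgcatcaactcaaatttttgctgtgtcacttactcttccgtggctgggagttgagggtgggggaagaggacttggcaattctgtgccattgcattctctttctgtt
Dlx6, 23.2 kb upstream, chr6:6839647-6839846: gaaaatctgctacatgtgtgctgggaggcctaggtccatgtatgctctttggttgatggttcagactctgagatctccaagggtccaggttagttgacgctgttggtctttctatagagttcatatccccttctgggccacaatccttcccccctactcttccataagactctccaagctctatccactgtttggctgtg
Msx2, 41.4 kb upstream, chr13:53514646-53514845: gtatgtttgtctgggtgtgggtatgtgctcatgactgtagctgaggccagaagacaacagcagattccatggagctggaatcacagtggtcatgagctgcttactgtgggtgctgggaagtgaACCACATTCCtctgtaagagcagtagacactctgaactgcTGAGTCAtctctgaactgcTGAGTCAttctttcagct
Phex, 25.7 kb downstream of its internal start, chrX:157139624-157139823: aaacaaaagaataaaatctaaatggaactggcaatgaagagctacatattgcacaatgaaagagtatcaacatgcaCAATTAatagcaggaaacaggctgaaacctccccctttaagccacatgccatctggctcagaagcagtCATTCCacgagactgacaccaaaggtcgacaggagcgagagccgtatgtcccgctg
Spp1, 5.4 kb downstream, chr5:104441796-104441995: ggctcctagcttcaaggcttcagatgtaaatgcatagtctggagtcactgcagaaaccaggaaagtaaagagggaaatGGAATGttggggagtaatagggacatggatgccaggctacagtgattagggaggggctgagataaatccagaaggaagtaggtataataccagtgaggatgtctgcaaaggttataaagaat
Alpl, 8.4 kb downstream, chr4:137757639-137757838: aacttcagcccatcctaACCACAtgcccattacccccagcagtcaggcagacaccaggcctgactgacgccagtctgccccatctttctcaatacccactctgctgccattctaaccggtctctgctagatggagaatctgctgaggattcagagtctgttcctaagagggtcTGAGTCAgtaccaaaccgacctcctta
The Phex window, which gained with CytoD, held a DLX/MSX match at base 77 and a TEAD match at base 145. The Spp1 window 5.4 kb downstream, which gained with CK666 at 4 h in MSCs, held a TEAD match at base 79. The Alpl window, which gained with CK666 in NIH3T3 cells, held a runt match at base 18 and an AP-1 match at base 174. The 250 bases upstream of the Spp1 start, taken from the promoter table of RefSeq (GRCm38.p6), held a runt match at base 123.
Spp1 promoter, chr5:104434861-104435110: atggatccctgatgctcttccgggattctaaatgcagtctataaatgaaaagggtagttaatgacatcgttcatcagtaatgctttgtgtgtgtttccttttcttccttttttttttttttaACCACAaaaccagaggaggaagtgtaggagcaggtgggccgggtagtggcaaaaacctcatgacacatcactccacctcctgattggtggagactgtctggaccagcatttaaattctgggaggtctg
The promoter table matched 6 of the 9 genes, all but Sp7, Dlx5 and Dlx6.

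These motifs are short and common, and a match is a description of letters, not of a bound factor. The runt motif was found in the central 200 bases of 34 of the 162 windows at 24 h (21.0%, against 20.9% of all windows) and in 30 of 156 at 4 h (19.2%, against 20.9%). The AP-1 motif was found in 35 (21.6%, against 17.3%) and 53 (34.0%, against 24.9%), and the TEAD motif in 25 (15.4%, against 14.4%) and 25 (16.0%, against 15.8%). The DLX/MSX motif was found in 10 (6.17%, against 5.55%) and 11 (7.05%, against 5.70%). Among all promoters of 250 bases in the table, 14.0% held the runt motif, 6.75% AP-1, 12.6% TEAD and 7.17% DLX/MSX.

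At 24 h, most osteoblast gene windows kept their accessibility within the limits of the test under both actin inhibitors. A window was called when edgeR's quasi-likelihood test gave an adjusted p under 0.01 (Benjamini-Hochberg over all windows tested) and the log2 fold change was beyond 1 in either direction. Log2 fold changes are given ± SE. Of 157 windows tested, 2 gained with CK666 (1.27%, against 1.88% of all 300323 windows tested) and 2 lost (1.27%, against 1.06%). With CytoD, 4 gained (2.55%, against 0.980%) and 6 lost (3.82%, against 1.40%). The gains with CytoD all lay near Phex, while the losses were spread over Runx2, Dlx6, Msx2, Phex and Spp1. The median log2 fold change of the 157 windows was −0.11 with CK666 (0.02 over all windows) and −0.07 with CytoD (0.04). Both comparisons used the same 3 control libraries. With scaling by total counts the CytoD split changed to 5 gained and 3 lost, and over all windows the gained share of CytoD calls moved from 41.2% to 56.4%. Windows of a gene are not independent samples of it. Groups said below not to overlap are described only, and the share of all windows or genes without overlap is not given.

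**Figure D1:**
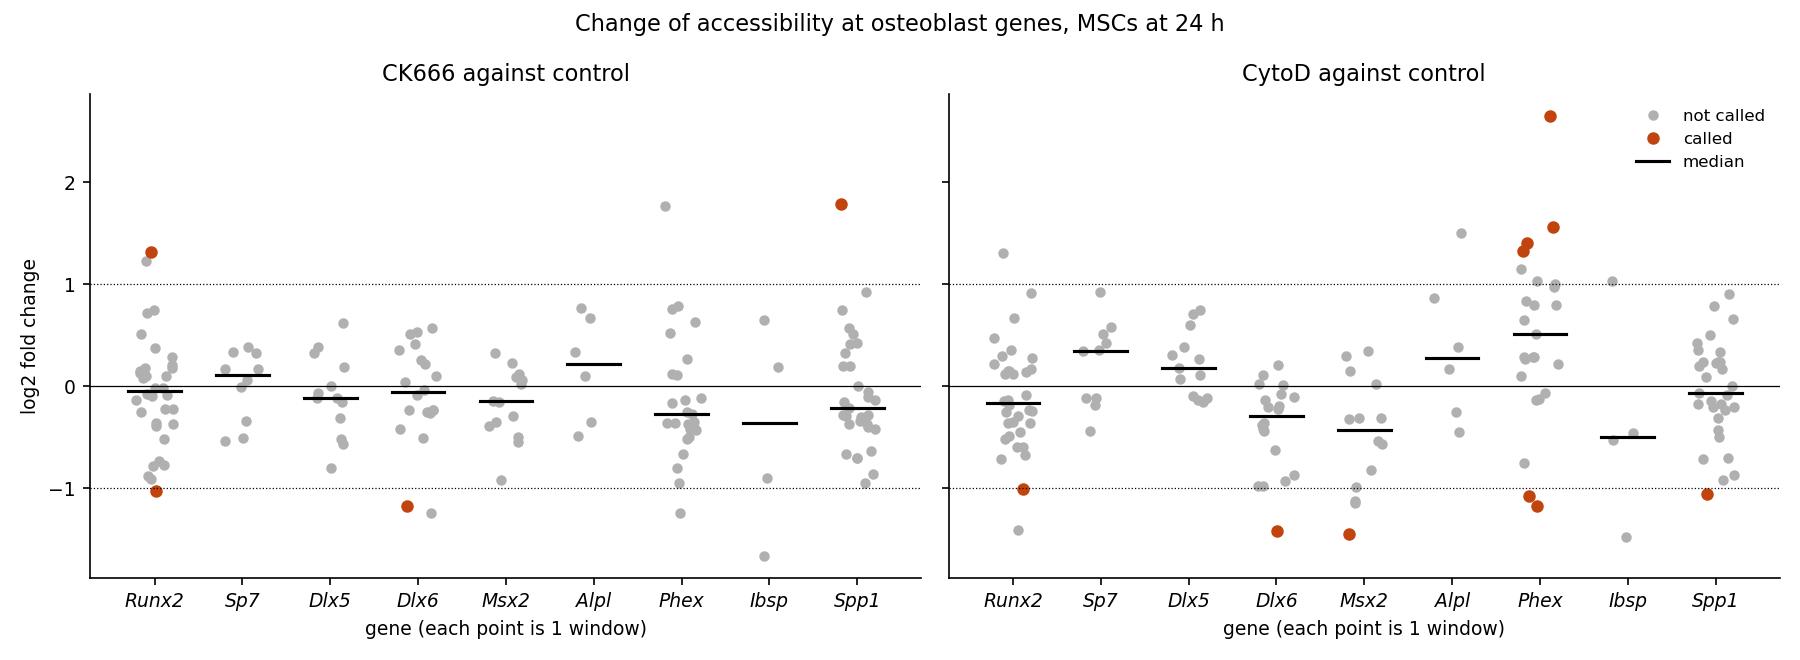
Log2 fold change of each tested window at 24 h, CK666 against control on the left and CytoD against control on the right, grouped by gene. Red points were called, grey points were not, black bars are medians per gene, and dotted lines mark the fold limit. The called Phex windows with CytoD lie on both sides of 0 (4 gained, 2 lost), and the gene medians with CytoD run from −0.49 (Ibsp) to 0.51 (Phex).

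None of the windows that hold a start of these genes was called at 24 h. Of 9 tested, the log2 fold changes ran from −0.80 to 0.51 with CK666 and from −0.31 to 0.59 with CytoD, where the lowest adjusted p was 0.15. Below the fold limit, CK666 passed the adjusted p limit at Dlx5, a homeodomain activator of osteoblast genes, at chr6:6881433-6882339 over its first coding exon. It held 222, 239 and 267 normalised counts in control, 140.5, 129.6 and 149 in CK666 and 195, 237 and 250.5 in CytoD libraries. The CK666 libraries lay below both other groups, which overlapped. The log2 fold change was −0.80 ± 0.13 (adjusted p = 1.7e-06) with CK666 and −0.09 ± 0.13 (adjusted p = 0.71) with CytoD, and the difference between the agents was −0.71 ± 0.13 (adjusted p = 3.0e-05).

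Runx2 has a proximal and a distal start, and no change passed the test at either at 24 h. The window at the proximal start (chr17:44733206-44736753) held 246, 273 and 266 normalised counts in control, 288, 246 and 301 in CK666 and 305, 285 and 267 in CytoD libraries. At the distal start (chr17:44814473-44814998) the values were 131, 215 and 183, then 129, 124 and 162, and then 164, 135 and 154. The groups overlapped at both. A weaker window beside the distal one (chr17:44813433-44814465), which also held an annotated Runx2 start, stayed between 17.9 and 52.1 in all 9 libraries.

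Inside the Runx2 gene, 3 intronic windows were called. The window 15.6 kb downstream of the proximal start (chr17:44717961-44719048) lost accessibility with CK666. It held 131, 118 and 164 in control, 71.2, 53.1 and 79.6 in CK666 and 91.6, 91.1 and 72.2 in CytoD libraries. All treated libraries lay below the controls. On the log2 scale the change was −1.03 ± 0.18 (adjusted p = 1.4e-05) with CK666 and −0.71 ± 0.18 (adjusted p = 0.0044) with CytoD, the latter inside the fold limit. The CK666 call also fell inside the fold limit without CK666 library 2 (−0.89) or control library 3 (−0.90).

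The Runx2 window 6.5 kb downstream (chr17:44727617-44728152) lost accessibility with CytoD. Its values were 67.5, 80.1 and 109.9 in control, 90.8, 87.01 and 102 in CK666 and 48.4, 31.6 and 48.5 in CytoD libraries. CytoD lay below both other groups without overlap. CytoD differed from control by −1.01 ± 0.22 (adjusted p = 6.7e-04) and CK666 from CytoD by 1.11 ± 0.22 (adjusted p = 9.4e-05). The CytoD call was lost under scaling by total counts (−0.93), without control library 3 (−0.81) and without CytoD library 2 (−0.86), and the difference between agents fell to 0.95 without CytoD library 2.

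Another Runx2 window, 25.5 kb downstream (chr17:44708533-44709185), was called as gained with CK666, but control library 3 stood apart there. It held 7.79, 7.67 and 29.5 in control, 37.5, 40.9 and 37.3 in CK666 and 22.9, 31.6 and 20.1 in CytoD libraries. The control and CK666 groups did not overlap, though control library 3 was close to the CK666 libraries. The log2 fold change was 1.32 ± 0.37 (adjusted p = 0.0097), and the call was lost in 8 of the 9 fits that left out a library, all but that without control library 3, where the change was 2.28 (1.31 to 0.94 in the 8, the latter without control library 2), and with DESeq2 (adjusted p = 0.037). Summed over its 35 windows, Runx2 held 1734, 1838 and 1897 normalised counts in control, 1676, 1531 and 1778 in CK666 and 1669.5, 1562 and 1659 in CytoD libraries. The ratio of means to control was 0.912 ± 0.0796 (propagated SD, n = 3 against 3) with CK666, where the groups overlapped, and 0.894 ± 0.0520 with CytoD, where they did not.

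Sp7 showed no called window at 24 h. The window at its start (chr15:102365241-102367701) held 67.5, 33.2 and 28.6 in control, 48.7, 50.5 and 41.3 in CK666 and 61.1, 63.1 and 63.1 in CytoD libraries, and control library 1 lay above all others. Its strongest window in controls, 10.7 kb upstream, held 194, 249.7 and 255, then 170.4, 189.7 and 196, and then 182, 160.3 and 176. CytoD lay below the controls there, at a log2 fold change of −0.44 ± 0.13 (adjusted p = 0.017) that missed the limits. The sums over 11 windows were 482, 549.8 and 547 in control, 544, 518 and 502 in CK666 and 524, 532 and 523 in CytoD libraries, overlapping throughout.

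Dlx5 and Dlx6 are neighbouring genes, and the Dlx6 windows lie partly within Dlx6os1, a noncoding transcript of the same locus. A window in an intron of Dlx6os1, 23.2 kb upstream of the Dlx6 start (chr6:6839335-6840158), was the only window called with both agents in the same direction, out of 4 called with CK666 and 10 with CytoD. It held 256, 260.0 and 313 in control, 124, 118 and 127 in CK666 and 91.6, 124 and 95.1 in CytoD libraries. Every treated library lay below every control. This gave a log2 fold change of −1.17 ± 0.14 (adjusted p = 1.2e-10) with CK666 and −1.42 ± 0.14 (adjusted p = 9.9e-13) with CytoD.

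The strongest Dlx6 window, 32.5 kb upstream, held 929, 1184 and 1185 in control, 946, 924 and 901 in CK666 and 775, 891 and 809 in CytoD libraries. CytoD lay below all controls, at −0.42 ± 0.08 (adjusted p = 5.7e-05), inside the fold limit. At the Dlx6 start the values were 116, 183 and 177 in control, 216, 223 and 203 in CK666 and 140.0, 106 and 189 in CytoD libraries, and neither agent passed the test against control. Every CK666 library lay above the 6 others, and the agents differed by 0.54 ± 0.15 (adjusted p = 0.0071), inside the fold limit. Over all 20 Dlx6 windows the sums were 2604, 3075 and 3060.0 in control, 2641, 2605 and 2427 in CK666 and 1999, 2158 and 2264 in CytoD libraries, and CytoD stood below control at a ratio of 0.735 ± 0.0816. Dlx5, in contrast, summed to 758, 867 and 933, then 765, 687 and 781, and then 928, 883 and 947, where control overlapped both treated groups and CK666 lay below CytoD.

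The strongest Msx2 window of the controls lost accessibility with CytoD. It lay 41.4 kb upstream, in an intron of the noncoding gene Gm34022 (chr13:53514478-53515013). It held 177, 214 and 186 in control, 160.1, 164 and 149 in CK666 and 81.4, 68.01 and 64.0 in CytoD libraries. The 3 groups did not overlap, and CytoD was far below the others. Its log2 fold change was −1.45 ± 0.16 (adjusted p = 3.1e-11) with CytoD and −0.29 ± 0.14 (adjusted p = 0.22) with CK666, and the agents differed by 1.16 ± 0.16 (adjusted p = 3.5e-08).

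At the Msx2 start the values were 116, 135 and 119 in control, 142, 114 and 146 in CK666 and 123, 74.1 and 102 in CytoD libraries, with overlap. The Msx2 sums were 701, 764 and 794 in control, 736, 686 and 686 in CK666 and 489.9, 491 and 445 in CytoD libraries. CytoD lay below both other groups, at 0.631 ± 0.0526 of control. Within 1 Mb on both sides of the Msx2 windows, the median log2 fold change of 172 other windows with CytoD was −0.23, beside −0.42 for the 14 Msx2 windows.

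Among the mineralization enzymes, Alpl had few reads at 24 h. The window at its start never exceeded 30.2 normalised counts in the 9 libraries. Its strongest window lay in an intron, 1 kb downstream of another annotated Alpl start. It held 38.96, 53.7 and 52.7 in control, 51.5, 67.9 and 37.3 in CK666 and 91.6, 87.4 and 89.6 in CytoD libraries. CytoD lay above all other libraries, at a log2 fold change of 0.87 ± 0.22 (adjusted p = 0.0050) that missed the fold limit. The Alpl sums were 131, 184 and 153 in control, 184, 185 and 151 in CK666 and 230.3, 171 and 198 in CytoD libraries, and all groups overlapped.

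Phex had the most called windows with CytoD, in both directions. Its 25 windows were assigned through the main starts at 157415286 and 157415312 (chrX, minus strand) and through an annotated start of a shorter transcript at 157165662. Downstream of that internal start by 25.7 kb, an intergenic window (chrX:157139437-157140010) held 71.4, 77.6 and 92.05 in control, 53.4, 62.6 and 88.5 in CK666 and 220.1, 209 and 217 in CytoD libraries. The CytoD libraries stood apart from the other 6. CytoD differed from control by 1.41 ± 0.16 (adjusted p = 2.4e-10) and CK666 from CytoD by −1.66 ± 0.17 (adjusted p = 4.6e-13).

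A pattern of the same kind was seen in a Phex intron 42.1 kb downstream of the main start (chrX:157371425-157373227). The values were 57.1, 57.1 and 61.7 in control, 71.2, 57.4 and 33.4 in CK666 and 141, 155 and 146 in CytoD libraries, and again only CytoD stood apart. Its log2 fold change was 1.33 ± 0.20 (adjusted p = 2.4e-07) with CytoD and −1.44 ± 0.20 (adjusted p = 1.7e-08) for CK666 against CytoD. A nearby intronic window, 45.9 kb downstream (chrX:157368842-157369392), was much weaker, at 12.99, 12.8 and 13.4 in control, 16.9, 20.9 and 18.7 in CK666 and 54.7, 38.9 and 24.7 in CytoD libraries. Its CytoD gain of 1.56 ± 0.38 (adjusted p = 0.0022) was lost without control library 2 or 3 (adjusted p = 0.017 and 0.013) and without CytoD library 1 or 2 (0.061 and 0.011).

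The weakest Phex gain, 7.8 kb downstream of the main start (chrX:157406857-157407484), rested on few reads. It held 3.90, 3.41 and 1.79 in control, 13.1, 0.870 and 17.7 in CK666 and 19.1, 15.8 and 22.9 in CytoD libraries. CytoD did not overlap control, while the CK666 libraries spread from below control to within the CytoD range. The CytoD gain of 2.66 ± 0.69 (adjusted p = 0.0050) was lost without control library 2 or 3 (adjusted p = 0.020 and 0.039) and without CytoD library 1 or 3 (0.015 and 0.043), and DESeq2 gave it no adjusted p.

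The 2 Phex losses with CytoD lay upstream of the internal start, within the gene. The stronger, 18.5 kb upstream (chrX:157184154-157184677), held 253, 337 and 296 in control, 244, 233 and 183 in CK666 and 127, 144 and 123 in CytoD libraries. The groups stepped down from control through CK666 to CytoD without overlap. CytoD lowered it by −1.18 ± 0.13 (adjusted p = 7.5e-11) and CK666 by −0.43 ± 0.12 (adjusted p = 0.012), the latter past neither limit. The other, 16.2 kb upstream (chrX:157181894-157183018), held 98.7, 76.7 and 91.2, then 37.5, 53.1 and 46.2, and then 66.2, 32.8 and 29.3, with both treated groups below control. Its CytoD call (−1.08 ± 0.24, adjusted p = 9.9e-04) was lost without CytoD library 2 (−0.96) or 3 (−0.86) and fell on the fold limit under total counts. With CK666 the change was −0.95 (adjusted p = 0.0027), inside the fold limit, and CK666 differed from CytoD by 0.13 (adjusted p = 0.82). After 4 h of CK666 in MSCs, the overlapping windows were at −0.80 (adjusted p = 5.6e-06) and −0.77 (adjusted p = 0.12).

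Summed over its windows, Phex held 1025, 1122 and 1103 in control, 953, 923 and 866 in CK666 and 1267, 1282 and 1218 in CytoD libraries. CK666 lay below and CytoD above the controls, at ratios of 0.844 ± 0.0575 and 1.16 ± 0.0635. The 99 other windows within 1 Mb of Phex had a median log2 fold change of 0.14 with CytoD and 0.09 with CK666, beside 0.51 and −0.27 for the 25 Phex windows.

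Ibsp had 4 windows at 24 h and none at its start. Nearly all of its signal came from a window 46.9 kb upstream (chr5:104251752-104252267), which held 408, 423 and 412 in control, 510.3, 447 and 457 in CK666 and 336, 274 and 257 in CytoD libraries. CK666 lay above and CytoD below the controls. On the log2 scale the change was 0.19 ± 0.10 (adjusted p = 0.27) with CK666 and −0.53 ± 0.10 (adjusted p = 9.1e-05) with CytoD, and the agents differed by 0.71 ± 0.10 (adjusted p = 5.9e-08), inside the fold limit. The Ibsp sum was 0.704 ± 0.0832 of control with CytoD and 1.09 ± 0.0683 with CK666, neither overlapping control.

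Spp1 gained a window with CK666 that CytoD did not open. The intergenic window 17.6 kb upstream (chr5:104416910-104417523) held 16.9, 36.6 and 34.9 in control, 114, 89.6 and 112 in CK666 and 19.1, 21.9 and 34.8 in CytoD libraries. Every CK666 library stood above the 6 others, and CytoD overlapped control. The log2 fold change was 1.78 ± 0.25 (adjusted p = 3.3e-08) with CK666 and −0.23 ± 0.30 (adjusted p = 0.69) with CytoD, and CK666 exceeded CytoD by 2.02 ± 0.26 (adjusted p = 3.0e-09).

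Nearer the Spp1 start, 8.8 kb upstream (chr5:104425789-104426336), CytoD lowered accessibility. The values were 226, 243 and 243 in control, 202, 184 and 199.5 in CK666 and 96.7, 129 and 117 in CytoD libraries, stepping down without overlap. The CytoD change was −1.05 ± 0.14 (adjusted p = 8.0e-09), which fell just inside the fold limit under total counts (−0.98) and without CytoD library 1 (−0.98). The window at the start held 501, 433 and 510.3 in control, 366, 475 and 459 in CK666 and 391, 442 and 422 in CytoD libraries, with overlap. The Spp1 sums over 33 windows were 3181, 3317 and 3477, then 3160.3, 3002 and 3247, and then 3064, 3147 and 3038, a ratio to control of 0.943 ± 0.0563 with CK666 and 0.927 ± 0.0448 with CytoD.

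**Figure D2:**
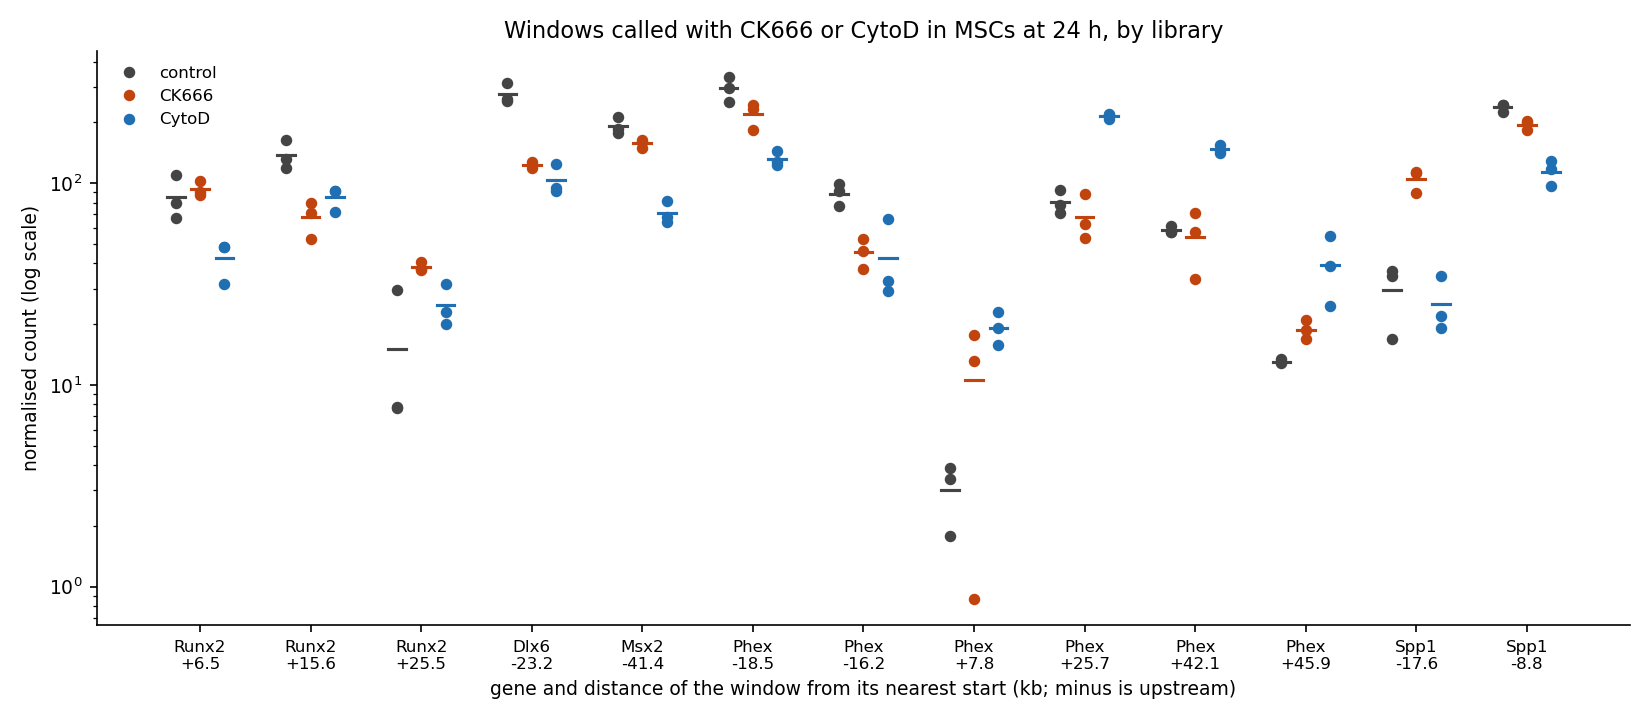
Normalised counts (log scale) of the 13 windows called with CK666 or CytoD at 24 h, with the gene and the distance from its nearest start in kb on the horizontal axis. Points are libraries (3 each of control, CK666 and CytoD) and bars are group means. The CK666 libraries of the Spp1 window 17.6 kb upstream sit between 89.6 and 114, and its control and CytoD libraries between 16.9 and 36.6.

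A direct test of CK666 against CytoD called 9 of the 157 windows. Of these, 3 were higher with CK666 (1.91%, against 2.14% of all windows) and 6 higher with CytoD (3.82%, against 1.14%). With total counts 3 and 6 were again called, while over all windows the share of calls higher with CK666 moved from 65.3% to 53.8%. The 3 higher with CK666 were the Spp1, Msx2 and Runx2 windows given above. Among the 6 higher with CytoD, 5 were near Phex and 1 near Spp1. Apart from the Phex windows 25.7 kb and 42.1 kb downstream given above, those near Phex lay 48.4 kb downstream (−1.81 ± 0.34, adjusted p = 4.4e-05), 18.1 kb upstream (−1.78 ± 0.45, adjusted p = 0.0033) and 33.0 kb upstream within an intron of Sms (−2.05 ± 0.50, adjusted p = 0.0019), and the Spp1 window lay 19.8 kb upstream (−1.61 ± 0.40, adjusted p = 0.0021). The 18.1 kb and 33.0 kb Phex calls were lost without CK666 library 1 (−1.86 and −1.77), CK666 library 2 (−1.38 and −1.81) or CytoD library 1 (−1.54 and −1.71). The Spp1 call was lost without CK666 library 2 (−1.58) or 3 (−1.38) and without CytoD library 2 (−1.51) or 3 (−1.61).

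**Figure D3:**
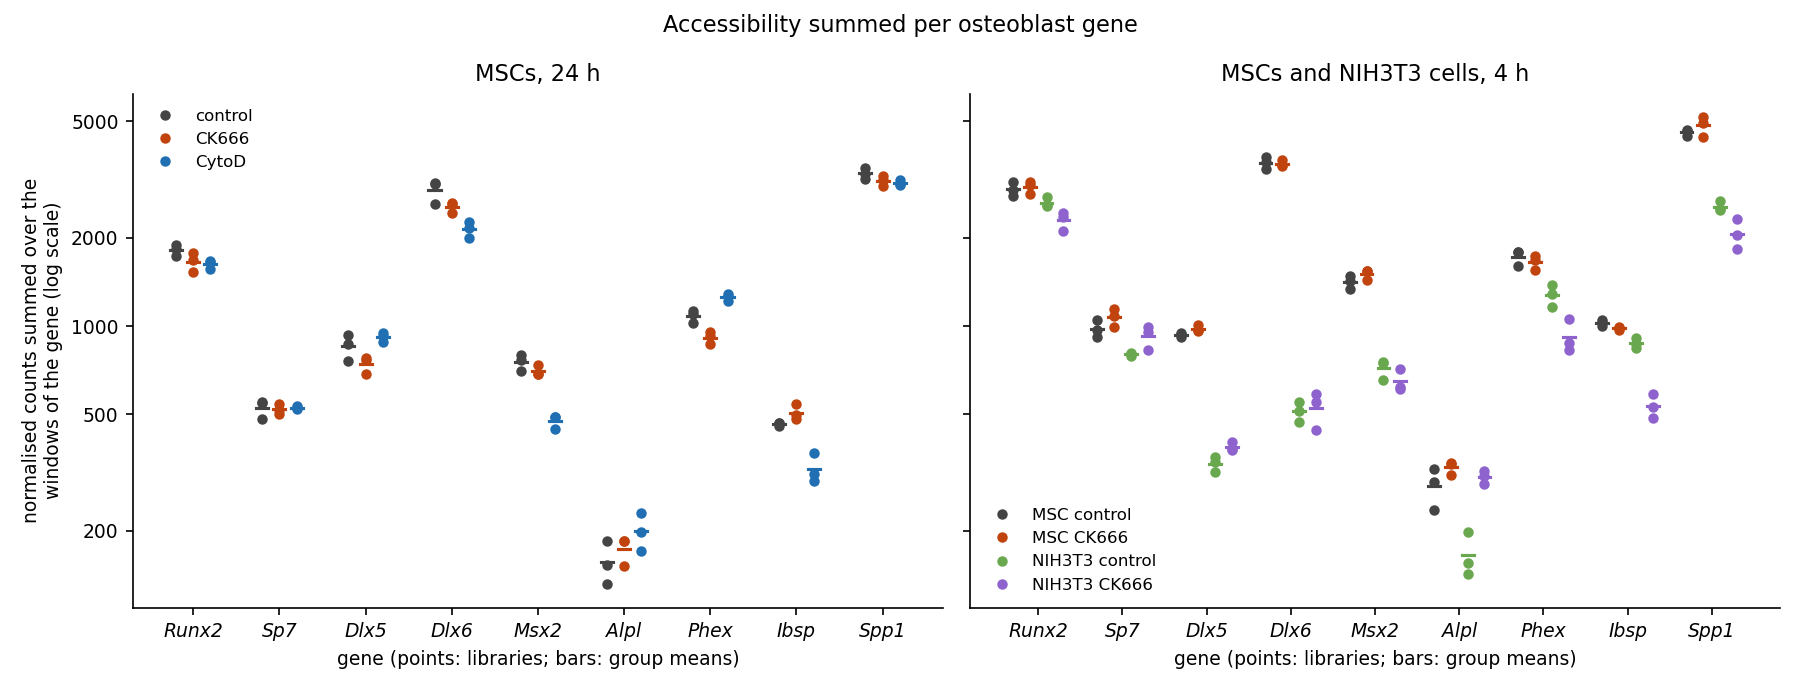
Normalised counts summed over the windows of each gene (log scale), for the 24 h experiment on the left and the 4 h experiment on the right. Points are libraries, 3 per group, and bars are group means. At 24 h the CytoD libraries of Msx2 (445 to 491) and Ibsp (296 to 369) sit below their controls, and at 4 h the Dlx6 sums of MSC controls (3446 to 3790) sit far above those of NIH3T3 controls (471 to 551).

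After 4 h of CK666, MSCs showed called changes near Spp1 alone among the 9 genes. Of 144 windows tested, 3 gained (2.08%, against 0.590% of all 306819 windows tested) and 0 lost (against 0.427%) with edgeR's quasi-likelihood test. Without the fold limit and at an adjusted p under 0.05, 8 were higher and 4 lower, beside 10935 and 11687 of all 306819 windows. All 3 gains lay within and just downstream of Spp1. At the 10 windows that hold a start, no change was called, and the log2 fold changes ran from −0.34 to 0.55.

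The strongest of these Spp1 windows, 5.4 kb downstream of an internal start and beyond the gene (chr5:104441611-104442180), rose about as much as the fold limit. It held 281, 254 and 236 in MSC controls and 559, 563 and 443 with CK666, without overlap. In NIH3T3 cells the same window held 21.6, 18.2 and 21.1 in control and 3.07, 9.88 and 12.01 in CK666 libraries, an order of magnitude lower. The log2 fold change was 1.02 ± 0.09 (adjusted p = 2.1e-14) in MSCs and fell to 0.96 without control library 3, CK666 library 1 or CK666 library 2. At 24 h the overlapping window showed no gain, at −0.37 with CK666 (adjusted p = 0.030) and 0.36 with CytoD (adjusted p = 0.031).

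An Spp1 window over a coding exon, 3.9 kb downstream of the same internal start (chr5:104440065-104440620), held 45.7, 50.05 and 54.6 in MSC controls. With CK666 it held 105, 97.95 and 116. The groups did not overlap, and the change was 1.08 ± 0.19 (adjusted p = 2.4e-05), or 0.997 without CK666 library 3. The last, in an intron 1.4 kb downstream of that start (chr5:104437592-104438317), held 9.14, 22.02 and 13.2 in control and 40.1, 38.8 and 35.95 with CK666. Its gain of 1.36 ± 0.33 (adjusted p = 0.0028) was lost without CK666 library 1 or 2 (adjusted p = 0.015 and 0.017), without control library 1 or 3 (0.045 and 0.018) and with DESeq2 (0.011).

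None of the 4 windows called with CK666 at 24 h was called at 4 h in MSCs, and 2 of them moved in the same direction at an adjusted p under 0.05. The Spp1 window 17.6 kb upstream overlapped a 4 h window at a log2 fold change of 0.64 in MSCs (adjusted p = 0.0092), below the fold limit, and 0.48 in NIH3T3 cells (adjusted p = 0.41). For the Runx2 window 25.5 kb downstream the 4 h value in MSCs was 0.83 (adjusted p = 0.025), for the Runx2 window 15.6 kb downstream −0.13 (0.50), and for the Dlx6 window −0.18 (0.51). The experiments were separate, and the difference between their times was not tested.

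**Figure D4:**
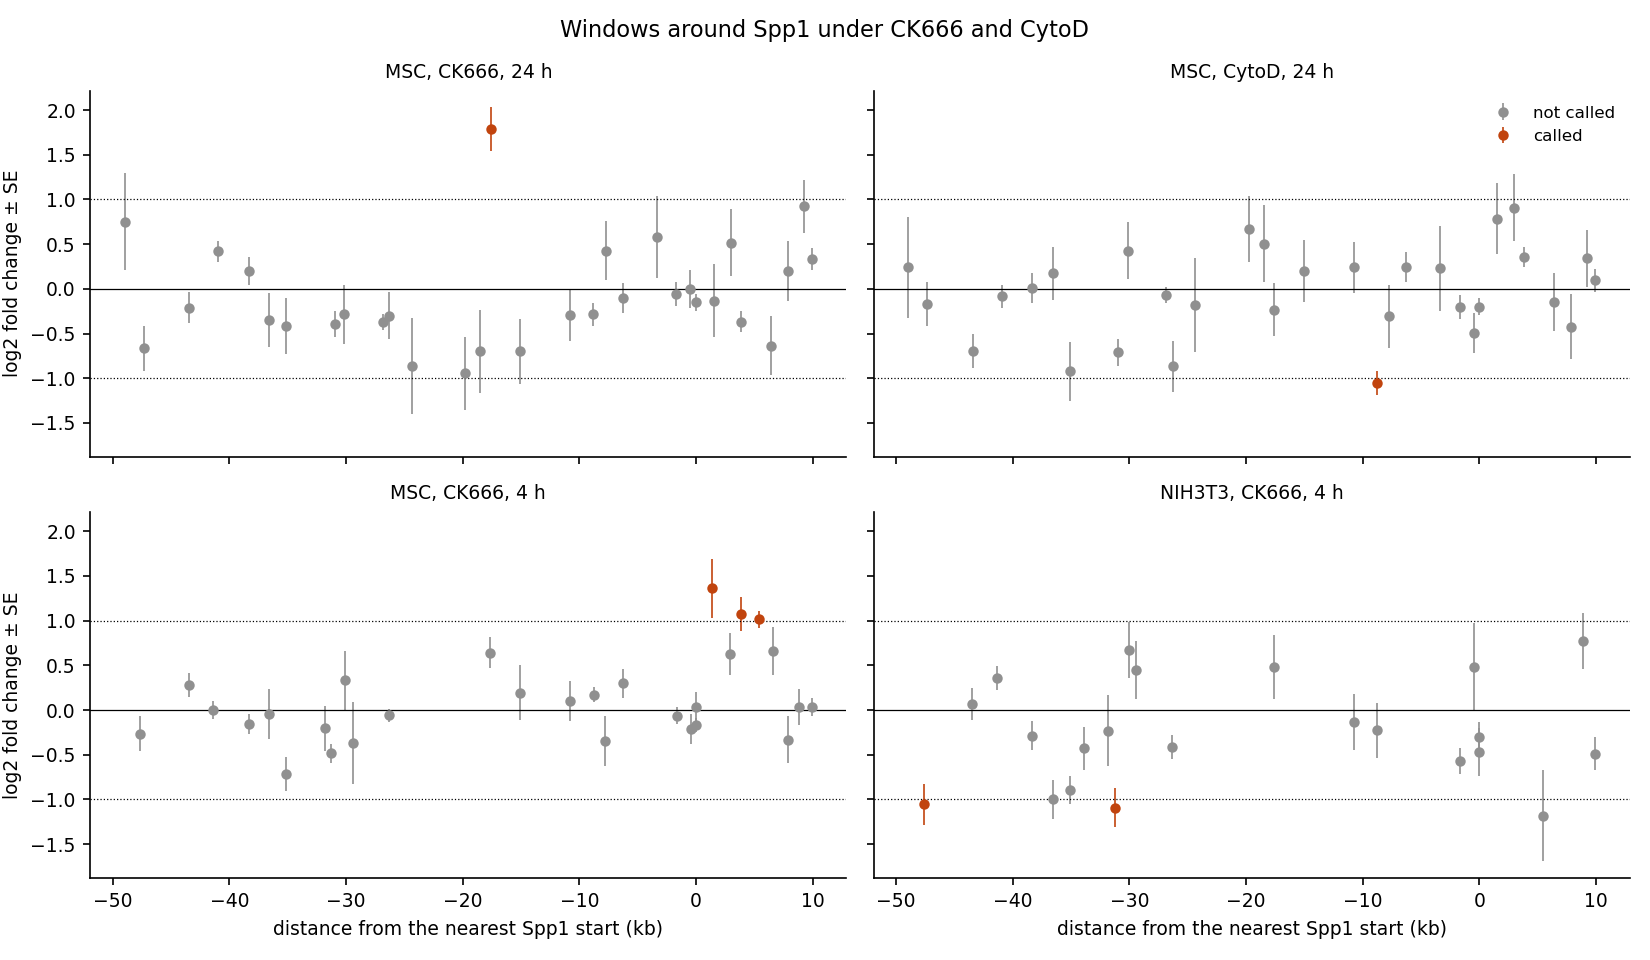
Log2 fold change ± SE of each Spp1 window against its distance from the nearest Spp1 start (kb), in 4 panels: CK666 and CytoD in MSCs at 24 h, and CK666 in MSCs and in NIH3T3 cells at 4 h. Red points were called, grey points were not, and dotted lines mark the fold limit. The gain with CK666 at 24 h lies 17.6 kb upstream, while the gains in MSCs at 4 h lie 1.4 to 5.4 kb downstream.

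In NIH3T3 cells, 4 h of CK666 raised an Alpl window and lowered windows near Phex and Spp1. Of 129 windows tested, 1 gained (0.775%, against 1.87% of all 331963 windows tested) and 3 lost (2.33%, against 1.67%). With scaling by total counts the same test called 1 gain and no loss, since the 3 losses then came to −0.97, −0.98 and −0.95. Over all windows, the gained share of calls moved from 52.8% to 69.5% with that scaling. None of 8 windows at a start was called, with log2 fold changes from −0.47 to 0.99.

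The Alpl window lay in an intron 8.4 kb downstream of a start (chr4:137757398-137758080). In NIH3T3 cells it held 4.32, 15.6 and 7.66 in control and 42.98, 80.2 and 68.1 with CK666. The groups were well apart, and the log2 fold change was 2.77 ± 0.35 (adjusted p = 1.0e-08). In MSCs the values were 2.03, 14.01 and 12.1 in control and 22.9, 8.44 and 20.7 with CK666, with overlap, and the 24 h table had no window there. The Alpl sum rose 1.84 ± 0.337 times in NIH3T3 cells, from 156, 198 and 143 to 307, 319.6 and 288, beside 1.16 ± 0.193 in MSCs, where the groups overlapped.

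The Phex loss lay 35.8 kb upstream, in an intron of Sms (chrX:157451122-157452144), and held 236, 207 and 234 in NIH3T3 controls and 85.96, 124 and 103 with CK666. In MSCs it held 80.2, 65.1 and 91.03 in control and 101, 106 and 80.0 with CK666. NIH3T3 cells lost signal without overlap, while the MSC groups overlapped. The NIH3T3 change was −1.08 ± 0.16 (adjusted p = 8.0e-07), or −0.98 without CK666 library 1.

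The Spp1 losses in NIH3T3 cells lay 31.3 kb and 47.6 kb upstream. The former (chr5:104403301-104403846) held 113, 92.03 and 94.8 in control and 50.6, 51.6 and 37.03 with CK666, a change of −1.09 ± 0.22 (adjusted p = 1.8e-04), or −0.95 without CK666 library 3. The latter (chr5:104386884-104387490) held 92.8, 83.3 and 102 and 24.6, 59.3 and 44.04, a change of −1.06 ± 0.23 (adjusted p = 7.0e-04), or −0.83 without CK666 library 1, and its adjusted p was 0.011 without control library 3. Neither pair of groups overlapped. The sums of Spp1 (0.808 ± 0.103 of control), Phex (0.722 ± 0.114), Ibsp (0.613 ± 0.0615) and Runx2 (0.873 ± 0.0714) were lower with CK666 in NIH3T3 cells without overlap. Those of Sp7 (1.15 ± 0.109) and Dlx5 (1.14 ± 0.0756) were higher, also without overlap. Other windows within 1 Mb had a median log2 fold change of −0.11 for Spp1, −0.29 for Phex, −0.12 for Ibsp and 0.16 for Runx2. The medians of the genes' own windows were −0.29, −0.35, −0.16 and −0.12. For Sp7 and Dlx5 the neighbours had medians of 0.18 and 0.19, beside 0.36 and 0.53 for their own windows. Scaling by total counts raised the median log2 fold change over all windows by 0.11 in this comparison. The share of all genes whose sums did not overlap is not given here.

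For Ibsp, most of this came from the window 46.9 kb upstream (chr5:104251730-104252259), which held 727, 698 and 768 in NIH3T3 controls and 353, 423 and 418 with CK666. MSCs held 935, 859.9 and 953 in control and 876, 844 and 853 with CK666. The NIH3T3 groups were well apart. The change there was −0.85 ± 0.13 (adjusted p = 6.2e-07), and in MSCs it was −0.10 ± 0.07 (adjusted p = 0.43).

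Whether CK666 acted differently in the cell types was tested by the interaction of cell type and treatment over all 12 libraries. Of 156 windows, 2 had a positive interaction (MSC effect above NIH3T3 effect, 1.28%, against 0.905% of all 368794 windows tested) and 1 a negative interaction (0.641%, against 0.498%). With total counts there were 2 positive and 2 negative, and over all windows the positive share of calls moved from 64.5% to 46.2%. The 3 windows called with the main scaling were the Spp1 window 5.4 kb downstream (2.19 ± 0.38, adjusted p = 3.8e-05), the Phex window in Sms (1.38 ± 0.25, adjusted p = 7.3e-05) and a Runx2 intronic window 2.2 kb downstream of the distal start. The Ibsp window 46.9 kb upstream reached 0.77 ± 0.15 (adjusted p = 1.8e-04), inside the fold limit.

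The Runx2 window (chr17:44811479-44812022) held 72.1, 67.1 and 77.9 in MSC controls and 63.1, 64.2 and 51.2 in MSCs with CK666. In NIH3T3 cells it was near background, at 2.16, 1.74 and 1.91 in control and 12.3, 10.98 and 14.01 with CK666. CK666 lay lower in MSCs and higher in NIH3T3 cells. The interaction was −2.90 ± 0.61 (adjusted p = 0.0011), and the NIH3T3 part rested on 6 raw counts in control against 32 with CK666, a ratio after scaling of 6.50 (95% exact interval 2.68 to 19.0, counting error only).

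The cell types differed far more than the treatments did. Between untreated MSCs and NIH3T3 cells, 57 of 140 windows were higher in MSCs (40.7%, against 18.6% of all 339793 windows tested) and 11 lower (7.86%, against 19.0%). With total counts the split was 52 and 12. The median log2 fold change (MSC over NIH3T3) of the 140 windows was 0.75, beside −0.04 over all windows. Other windows within 1 Mb of a gene had medians of −0.09 (Runx2), 0.09 (Sp7), −0.19 (Dlx5), −0.29 (Dlx6) and 0.14 (Msx2). For Alpl, Phex, Ibsp and Spp1 these neighbour medians were −0.12, 0.49, −0.05 and −0.08. The part of such regional differences in the gene sums was not tested. The MSC controls are the same libraries as in the test of CK666 in MSCs.

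**Figure D5:**
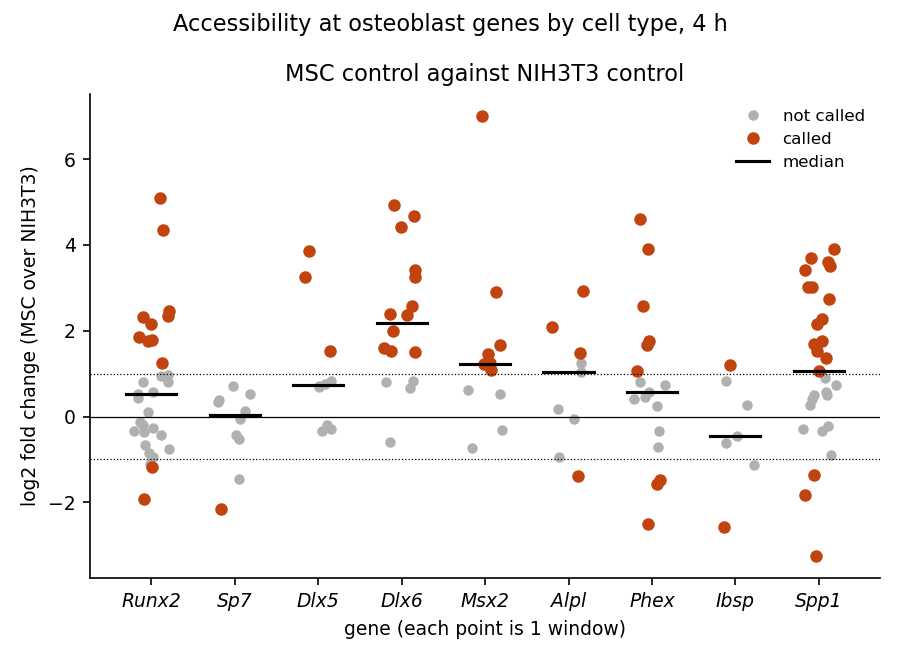
Log2 fold change of each tested window between untreated MSCs and NIH3T3 cells at 4 h (MSC over NIH3T3), grouped by gene. Red points were called, grey points were not, black bars are medians per gene, and dotted lines mark the fold limit. Dlx6 has 12 of 16 windows called higher in MSCs and a median of 2.18, while the Sp7 median is 0.04.

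By summed counts, the homeodomain genes Dlx6 and Dlx5 had higher ratios of MSC to NIH3T3 controls than the other 7 genes, while the ratio of Msx2 was within the error of those of Spp1 and Alpl. For Dlx6, 12 of 16 windows were higher in MSCs and none lower, with a median of 2.18. The Dlx6 sums were 3789.6, 3446 and 3622 in MSC and 513, 471 and 551 in NIH3T3 controls, a ratio of 7.07 ± 0.652. Dlx5 had 3 of 10 higher and none lower, with sums of 949, 917 and 937 against 344, 356 and 318, a ratio of 2.75 ± 0.166, although its median of 0.74 was below those of Spp1 (1.06) and Alpl (1.05). Msx2 had 7 of 11 higher and none lower, with sums of 1479, 1430.5 and 1337 against 756, 657 and 746, a ratio of 1.97 ± 0.179. No NIH3T3 library reached an MSC library in these sums.

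At their starts the contrast was stronger. The Dlx6 start held 230.4, 273 and 234 in MSC and 4.32, 7.81 and 10.5 in NIH3T3 controls, a log2 fold change of 4.93 ± 0.23 (adjusted p = 4.5e-26). The Dlx5 start held 261, 268 and 290.3 against 24.8, 21.7 and 7.66, a change of 3.87 ± 0.20 (adjusted p = 5.6e-24). The Msx2 start was closed to the depth of these libraries in NIH3T3 cells, at 4.32, 0 and 0 against 201, 174 and 189 in MSCs. That rested on 4 raw counts against 559, a ratio after scaling of 147 (95% exact interval 57.0 to 541, counting error only).

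The strongest Dlx6 window, 32.4 kb upstream in Dlx6os1, held 1538, 1317 and 1373 in MSC and 147, 133 and 147 in NIH3T3 controls (3.26 ± 0.10, adjusted p = 1.6e-33). Others of high count lay 36.0 kb upstream (2.40 ± 0.11, adjusted p = 3.4e-26) and 0.2 kb upstream (4.67 ± 0.21, adjusted p = 4.0e-27). With CK666 these levels held in MSCs, where the 32.4 kb window was at 1450.0, 1449 and 1327. The Msx2 window in Gm34022 that fell with CytoD at 24 h was open in both cell types, at 418, 359 and 375 in MSCs and 274, 220.5 and 281 in NIH3T3 cells, below the fold limit (0.52 ± 0.11, adjusted p = 6.2e-05).

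Runx2 was open at its starts in both cell types. The proximal start held 393, 406 and 363 in MSC and 394, 326 and 317 in NIH3T3 controls (0.12 ± 0.11, adjusted p = 0.34), a difference that turned to −0.07 under total counts. The distal start held 236, 295 and 271 against 192, 153 and 179, higher in every MSC library at 0.57 ± 0.12 (adjusted p = 1.0e-04), below the fold limit. Its strongest window, 1.2 kb upstream of the proximal start, held 412, 498 and 438 against 512, 489.7 and 490.0. Over all Runx2 windows tested, 10 of 31 were called higher in MSCs and 2 lower, with values from −1.91 to 5.1. The sums were 2914, 3101 and 2781 against 2758, 2589 and 2572, a ratio of 1.11 ± 0.0748 that fell to 0.946 under total counts and rose to 1.79 where each gene kept a single start.

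Sp7 differed little. Its start held 40.6, 54.1 and 39.5 in MSC and 45.4, 50.4 and 22.97 in NIH3T3 controls, with overlap, and 0 of 10 windows were higher and 1 lower (−2.14). The strongest window, 10.8 kb upstream, held 500.5, 538 and 450.1 against 374, 346 and 376 (0.39 ± 0.10, adjusted p = 7.4e-04).

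Of the enzymes, Alpl had 3 of 9 windows higher in MSCs and 1 lower, with a start that was weak in both, at 26.4, 20.02 and 16.2 against 6.48, 5.21 and 13.4. Its start passed the test only without NIH3T3 control library 3 (1.77, adjusted p = 0.0078; 1.26, adjusted p = 0.019 with all libraries). The strongest Alpl window, 17.7 kb upstream, held 89.3, 80.1 and 50.6 against 33.5, 25.2 and 17.2 (1.49 ± 0.27, adjusted p = 3.3e-06). Phex had 6 of 17 higher and 3 lower, from −2.50 to 4.6, and its sum ratio of 1.35 ± 0.142 turned to 0.854 where each gene kept a single start. The median of the 17 Phex windows was 0.57, close to 0.49 for the 118 other windows within 1 Mb and 0.42 for chromosome X. The Phex window in Sms that fell with CK666 in NIH3T3 cells was lower in MSC than in NIH3T3 controls (−1.57 ± 0.15, adjusted p = 1.4e-13).

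Of the matrix genes, Spp1 was more open in MSCs, with 15 of 29 windows higher and 3 lower. Its start held 579, 604 and 569 in MSC and 167, 155 and 175 in NIH3T3 controls, a change of 1.77 ± 0.11 (adjusted p = 5.0e-21). The groups were far apart. An internal start showed 0.74 ± 0.20 (adjusted p = 0.0014), below the fold limit. Windows of high count lay 8.7 kb upstream (3.40 ± 0.15, adjusted p = 2.5e-27), 5.4 kb downstream (3.61 ± 0.18, adjusted p = 2.7e-24), 31.3 kb upstream (1.53 ± 0.13, adjusted p = 3.6e-15) and 9.9 kb downstream (1.06 ± 0.13, adjusted p = 3.3e-10), the last of which was 0.89 without NIH3T3 control library 2 and 0.88 under total counts.

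In the other direction, an Spp1 window 35.1 kb upstream was lower in MSCs (−1.36 ± 0.14, adjusted p = 4.7e-12). The Spp1 sums were 4450.5, 4678 and 4620.2 against 2684, 2484 and 2509.5, a ratio of 1.79 ± 0.0891. Ibsp had 1 of 7 windows higher and 1 lower and a median of −0.45, its start was weak in both (14.2, 9.01 and 8.09 against 14.04, 13.02 and 19.1), and its strongest window, 46.9 kb upstream, differed by 0.28 ± 0.09 (adjusted p = 0.0061).

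The wider osteoblast program was read from 2 lists of genes. Of 317 windows near 15 other regulators, 2 gained (0.631%, against 1.88% of all windows) and 2 lost (0.631%, against 1.06%) with CK666 at 24 h. A gain lay near Bmp2 (2.29), a bone morphogenetic ligand, and rested on few reads. That window held 2.6, 1.7 and 6.26 normalised counts in control, 15.9, 26.1 and 11.8 in CK666 and 11.5, 24.3 and 7.31 in CytoD libraries. The losses lay near Runx1 (−1.27) and Sox9 (−1.63), the master factor of cartilage. With CytoD none gained (against 0.980%) and 6 lost (1.89%, against 1.40%), near Msx1 (−1.63), Runx1 (−1.26), Runx3 (−1.08), Twist2 (−1.04) and Fgfr2 (−1.03) and, just past the fold limit, near Fgfr1. At 4 h none of 278 was called in MSCs (against 0.590% gained and 0.427% lost). Without the fold limit and at an adjusted p under 0.05, 10 were higher and 4 lower, beside 10935 and 11687 of all 306819 windows. In NIH3T3 cells 4 of 279 gained (1.43%, against 1.87%) and 8 lost (2.87%, against 1.67%), and 6 of the losses lay near Sox9 (−1.47 to −1.22).

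Of 261 windows near 16 genes of matrix and mineral, 6 gained (2.30%, against 1.88% of all windows) and 2 lost (0.766%, against 1.06%) with CK666 at 24 h, shares near those of all windows. The gains lay near Bglap2 (2.60) and Bglap (1.73), the osteocalcin genes, Sparc (2.09), the matrix protein osteonectin, Tnfsf11 (1.67) and Tnfrsf11b (1.58), the osteoclast-forming ligand RANKL and its decoy receptor, and Phospho1 (1.05), a phosphatase of mineralization. The Bglap2 and Bglap windows held a start of their gene. Few reads lay in control libraries at Bglap2 (18.2, 15.3 and 8.94), Bglap (13, 9.38 and 8.94) and Sparc (20.8, 8.52 and 10.7). With CK666 these windows held 73, 79.2 and 101, then 39.3, 33.9 and 29.5, and then 60.9, 53.9 and 49.1. Bglap and Bglap2 are near-identical copies, so reads could be split between them in a way the counts do not show. The losses both lay near Col1a2 (−1.09, the other just past the fold limit), a chain of type I collagen. With CytoD, 2 gained (0.766%, against 0.980%), both near Tnfsf11 (1.16 and 1.14), and 5 lost (1.92%, against 1.40%), near Sparc (−1.61 and −1.06), Mepe (−1.16), Col1a2 (−1.15) and Omd (−1.04). At 4 h, 3 of 269 gained in MSCs (1.12%, against 0.590%), near Phospho1 (1.51), Sparc (1.48) and Bglap2 (1.19), and none lost (against 0.427%). In MSC controls these windows held 27.4, 36 and 25.3, then 22.3, 24 and 6.07, and then 20.3, 12 and 23.3. NIH3T3 cells showed 6 gains (2.15%, against 1.87%) and 4 losses (1.43%, against 1.67%) of 279. Between untreated cell types, 76 of 301 regulator windows were higher in MSCs (25.2%, against 18.6% of all windows) and 62 lower (20.6%, against 19.0%). Of 286 matrix and mineral windows, 59 were higher (20.6%) and 62 lower (21.7%), both near the shares of all windows.

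Across the 9 libraries at 24 h, the summed counts that followed those of Runx2 most closely, out of 8043 protein-coding genes, were those of Chmp2a (Pearson r = 0.965), Prim2 (0.961) and Ccdc88a (0.960). The Runx2 sum itself moved little between groups, and all of these sums come from the same 9 libraries.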

How the data were processed

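The 21 libraries used here were ATAC-seq of 7 groups with 3 replicates each, with groups and replicate numbers taken from the labels. Per the methods, the authors ran PEPATAC, with bowtie2 for alignment and MACS2 for peaks, and merged the peaks of all replicates into shared windows. They deposited the read count of each window and library, unnormalised, as a table per experiment. The settings for read filters and for the transposase shift, and the tool versions, were not given in the sources used here. The submitters' processing notes name mm10, the UCSC name of GRCm38, and no window ran past a GRCm38 chromosome end. Windows were 500 to 9661 bp long at 24 h and 500 to 11728 bp at 4 h. A start of a protein-coding transcript lay in a window for 60.7% of starts at 24 h and 59.6% at 4 h, against 15.7% and 14.9% after a shift of 20000 bp.

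Counts were tested with edgeR 4.0.16 in R 4.3.3 (quasi-likelihood test, its default filter on low counts, TMM), with Benjamini-Hochberg adjustment over all windows tested. The 9 libraries at 24 h were fitted together, each comparison of a pair of groups at 4 h on its 6 libraries, and the interaction on 12. DESeq2 1.42.0 served as an alternative. Tables were made with Python 3.11.15, pandas 2.3.3 and bedtools 2.31.1. The procedure was tested on simulated data. Rank correlations within groups were 0.872 to 0.916 at 24 h and 0.880 to 0.952 at 4 h, and no libraries were identical. Intervals on raw counts cover counting error only, since reads without molecular identifiers are not independent molecules.

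The genes and the lists of other osteoblast genes and cell markers were chosen with earlier results of these data known. The windows named were those at a start, those called under CK666 or CytoD, the 12 called windows of highest mean count for MSC against NIH3T3 cells, and the strongest window of each gene in controls. Windows of the 2 tables were matched by an overlap of at least 1 bp. The 9 columns of the siRNA experiment were not used, since their rank correlations with the other columns lay between −0.0093 and 0.0014. The result of 1 gene among the other regulators is not reported here.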

Additional observations from a re-analysis of the deposited data

Results flagged for a closer look

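The effect of CK666 at 4 h differed between MSCs and NIH3T3 cells at 3 osteoblast gene windows by the test of the interaction (edgeR's quasi-likelihood test, Benjamini-Hochberg over all windows). At the Spp1 window 5.4 kb downstream of an internal start, the MSC effect exceeded the NIH3T3 effect by 2.19 on the log2 scale (adjusted p = 3.8e-05). The MSC effect was 1.02, and the NIH3T3 libraries held at most 21.6 normalised counts there, so the NIH3T3 side rested on few reads. At the Phex window in an intron of Sms, 35.8 kb upstream, the difference was 1.38 (adjusted p = 7.3e-05), from a loss in NIH3T3 cells beside no called change in MSCs. At the Runx2 intronic window 2.2 kb downstream of the distal start, the difference was −2.90 (adjusted p = 0.0011), and the NIH3T3 controls held 6 raw counts in all.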

How the results depend on the processing

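For the 46 results of called windows, 616 values under alternative settings were computed: 557 kept their direction and their side of the limits, 59 kept their direction and fell short of the limits, and 0 changed sign. For 5 results of windows at starts that were not called, 58 of 59 values stayed there and 1 passed the limits. Counts of called windows are given as gained and lost. Dropping the fold limit and taking an adjusted p under 0.05 admits smaller changes. It gave 6 and 13 of 157 for CK666 at 24 h (14709 and 13826 of all 300323 windows tested). With CytoD it gave 7 and 20 (11051 and 18635), and for CK666 against CytoD 13 and 15 (22032 and 12719). At 4 h it gave 8 and 4 of 144 for CK666 in MSCs (10935 and 11687 of 306819). In NIH3T3 cells it gave 7 and 10 of 129 (19556 and 24104 of 331963). For MSC against NIH3T3 controls it gave 82 and 21 of 140 (97944 and 96786 of 339793). For the interaction it gave 4 and 3 of 156 (10719 and 6503 of 368794). Keeping only windows within 5 kb of a start left 0 and 0 for CK666 at 24 h, CytoD, their contrast and CK666 in NIH3T3 cells, 11 and 1 for MSC against NIH3T3 controls, and 0 positive interactions, since most called windows lay farther out. With 1 start per gene, CK666 gave 1 and 1, and CytoD 3 losses. Scaling by total counts gave 3 losses for CytoD, 0 losses in NIH3T3 cells and 2 negative interactions, in which its shift of the median takes part by construction. DESeq2's size factors, the DESeq2 test and no filter on low counts each left 1 gain for CK666 at 24 h; the cause was not tested.

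Leaving out each library in turn, the counts ran from 1 to 2 gained and 1 to 3 lost for CK666 at 24 h, 2 to 5 and 6 to 10 for CytoD, 3 and 3 to 6 for CK666 against CytoD, 1 to 3 and 0 for CK666 in MSCs at 4 h, 1 to 3 and 1 to 4 in NIH3T3 cells, 55 to 62 and 10 to 11 for MSC against NIH3T3 controls, and 2 and 1 to 2 for the interaction. Samples of the same replicate number did not deviate together (correlations from −0.072 to 0.027). The labels do not say whether equal numbers mark a pair, and correlations this low leave a weak pairing undecided. With a replicate block the counts were 2 and 2 for CK666 at 24 h, 5 and 7 for CytoD and 3 and 6 for their contrast. At 4 h they were 3 and 0 for CK666 in MSCs and 1 and 4 in NIH3T3 cells. They were 56 and 10 for MSC against NIH3T3 controls and 2 and 1 for the interaction. Some calls, such as the Phex window 7.8 kb downstream, rested on few reads.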

Other observations

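At the windows near 5 adipocyte markers (Pparg, Cebpa, Adipoq, Fabp4 and Plin1), 3 of 101 gained (2.97%, against 1.88% of all windows) and 0 lost (against 1.06%) with CK666 at 24 h. With CytoD, 3 gained (2.97%, against 0.980%) and 1 lost (0.990%, against 1.40%). With CK666 at 4 h, 4 of 96 gained in MSCs (4.17%, against 0.590%) and 4 of 85 in NIH3T3 cells (4.71%, against 1.87%). In either, 0 were lost (against 0.427% in MSCs and 1.67% in NIH3T3 cells). For the counts of 0 lost (edgeR's quasi-likelihood test), 3, 0 and 2 windows were lower at an adjusted p under 0.05 without the fold limit. Over all windows, 13826 of 300323, 11687 of 306819 and 24104 of 331963 were lower by that rule. Summed over the windows at their starts, these markers held 1599 to 1849 normalised counts in control, 1459 to 1668 in CK666 and 1546 to 1621 in CytoD libraries at 24 h. By gene, the 24 h means in control, CK666 and CytoD libraries were 406, 292 and 342 for Pparg and 1082, 1001 and 982 for Cebpa. They were 33.3, 44.0 and 72.0 for Adipoq, 166, 168 and 136 for Fabp4, and 55.5, 76.7 and 63.2 for Plin1. At 4 h the sums were 1828 to 1988 in MSC controls and 2030 to 2192 in MSCs with CK666. NIH3T3 cells held 249.8 to 268 in control and 248.7 to 315 with CK666. Near 3 chondrocyte markers (Acan, Col2a1 and Sox9), 5 of 63 windows were higher in untreated MSCs than in NIH3T3 cells (7.94%, against 18.6% of all windows) and 37 were lower (58.7%, against 19.0%). Of the lower windows, 19 lay near Sox9. The starts did not follow: Sox9 held 1098 in MSC and 1141 in NIH3T3 controls and Col2a1 51.5 and 9.68. Acan had no window at a start at 4 h. Of 4 endothelial markers, 2 had a window at a start at 24 h, and neither reached 100 normalised counts in any group mean.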
